A study of Mus musculus with 6 samples.

Results

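Integrins are membrane receptors of 1 α and 1 β subunit that hold cells to the extracellular matrix or to other cells. Talin and kindlin bind the short inner tail of the β subunit and switch the receptor on, and vinculin, the parvins with integrin-linked kinase, paxillin, focal adhesion kinase and zyxin then join the adhesion site to actin. Stromal cells of the marrow carry mainly β1 and αv integrins that bind collagen, laminin and fibronectin, whereas the β2 integrins are restricted to leukocytes and serve their adhesion, migration and phagocytosis. The genes of 25 integrin subunits (18 α and 7 β) and of 14 adhesion-site adaptors were taken by symbol from the RNA-seq table of control and Tet1/Tet2 siRNA-treated BMMSCs, giving 39 members of 36870 distinct symbols. The members were sorted by where the protein is best known, into 7 leukocyte integrins, 13 mesenchymal integrins, 5 other integrins, 10 widespread adaptors, 3 blood-cell adaptors and 1 epithelial adaptor. Several of the integrins listed as mesenchymal, such as β1, αv, α6 and β5, are also known from blood cells.

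BMMSCs are the cells of flushed C57BL/6 mouse femur and tibia marrow that stick to plastic and are then grown for 14 days. The labels give passage 2, whereas the methods name the first passage. The 3 libraries of the control group came from cells given a non-targeting siRNA according to the labels, but the RNA-seq methods call these cells vehicle-treated. With a vehicle control, the differences below would also hold any effect of siRNA delivery itself, which cannot be told apart here. Per the labels, the 3 libraries of the siTet1/Tet2 group came from cells given siRNAs against both Tet1 and Tet2. The deposited values are linear RPKM, in which reads are divided by gene length and library size, so levels of different genes can be compared per length. The age of the animals, and whether the replicates were separate cultures, were not given in the sources used here, so p-values measure only the spread between these libraries. A gene was tested with limma on log2(RPKM + 1) when its mean reached 0.1 RPKM, the log2 difference (siTet1/Tet2 minus control) on this scale is smaller than the true one for low genes, and a gene was called lower or higher with a Benjamini-Hochberg adjusted p under 0.05.

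The targeted genes and the cell type were checked first. Tet2 was at 2.57 to 4.08 RPKM in the controls and at 0.202 to 0.358 RPKM in the siRNA libraries, while Tet1 reached at most 0.098 RPKM in any library and was too low to test. The labelled cell type was only partly borne out by its markers. The stromal genes Pdgfra, Pdgfrb, Col1a1 and Ly6a (Sca1) were present, but Thy1 (CD90) did not exceed 0.146 RPKM. Markers of macrophages were abundant in both groups, with Ptprc (CD45) at 47.4 to 56.0 RPKM in the control libraries and 47.2 to 59.3 RPKM in the siRNA libraries. The 12 macrophage markers summed to 6515 to 8507 RPKM in the control libraries and 14410 to 17541 RPKM in the siRNA libraries, mostly Lyz2, and 7 were called higher and 2 lower. Of the 12 stromal markers, 10 were tested and 8 were called lower, and the list summed to between 1083 and 1575 RPKM in the control libraries against 138.5 to 280.1 RPKM in the siRNA libraries. The T cell and NK cell genes Cd3d, Cd3e, Cd3g, Cd8a and Ncr1 did not exceed 0.027 RPKM, and no neutrophil marker exceeded 0.113 RPKM. In bulk RNA, fewer cells of a type and less RNA per cell cannot be told apart, and the part of these marker changes in the results below was not tested.

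Of the 39 members, 33 were tested, and the siTet1/Tet2 group had 13 of them lower and 10 higher. Over all 13266 genes tested, 29.8% were called lower and 14.7% higher, with a median log2 difference of -0.09. All 6 leukocyte integrins tested were higher and 0 were lower, also at an unadjusted p under 0.05 (0 genes), and their median log2 difference was 0.44. Of the 12 mesenchymal integrins tested, 6 were lower and 2 higher (median -0.23). Of the 10 widespread adaptors, 7 were lower and 0 were higher, with 0 higher at an unadjusted p under 0.05, and the median was -0.77. The control and siRNA libraries did not overlap in any of the 23 called members, as in 99.0% of all genes called, so this adds little to the call. Without regard to the call, the groups did not overlap in 26 of the 33 members tested and in 55.7% of all genes tested. The members were named with earlier results of these libraries known, so these counts describe the genes and do not test the lists.

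**Figure D1:**
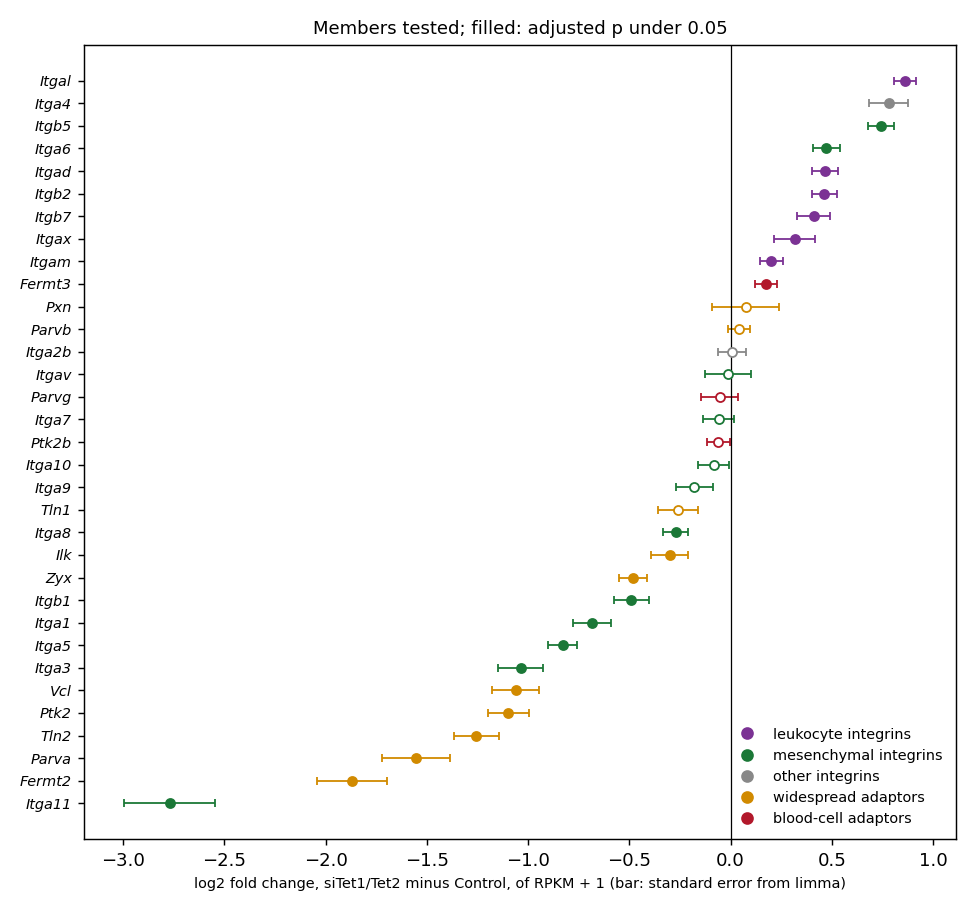
Log2 fold change of the 33 members tested, siTet1/Tet2 minus control, on the log2(RPKM + 1) scale, with the standard error (SE) as bars, colours for the lists and filled points for an adjusted p under 0.05. The leukocyte integrins all lie right of 0, and the lowest values belong to Itga11, Fermt2 and Parva.

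Of the β chains, 3 were abundant, and Itgb1 and Itgb2 had the highest mean levels of all members in both groups. Itgb1, the β1 chain that pairs with most matrix-binding α subunits, was at 364.3, 382.6 and 403.0 RPKM in the controls and at 250.4, 267.3 and 302.3 RPKM in the siRNA libraries. It was the most abundant member in the control libraries and fell by 0.49 on the log2 scale (SE 0.09, adjusted p = 0.00227 by limma). Itgb2, the β2 chain (CD18) shared by the leukocyte integrins, was at 212.1, 213.5 and 199.4 RPKM in the controls and rose to 289.5, 288.0 and 284.6 RPKM, a log2 difference of 0.46 (SE 0.06, adjusted p = 0.000467 by limma). Itgb5, which pairs with αv and binds vitronectin, rose from 144.4, 135.1 and 127.4 RPKM to 231.8, 227.4 and 222.9 RPKM, with a log2 difference of 0.74 (SE 0.07, adjusted p = 6.48e-05 by limma). In each of these 3 genes every siRNA library lay on 1 side of every control library. Within a library, the ratio of Itgb2 to Itgb1 was 0.495 to 0.582 in the control group and 0.941 to 1.16 in the siRNA group. Itgb1 made up 50.4% to 55.1% of the summed RPKM of the 7 β subunits in the control libraries and 32.4% to 37.2% in the siRNA libraries, Itgb2 27.3% to 29.4% and 35.1% to 37.4%, and Itgb5 17.4% to 20.0% and 27.5% to 30.0%. The summed RPKM of the α subunits overlapped between the groups (409.7 to 458.8 and 393.9 to 431.1), while the β sum was 722.1 to 732.3 and 773.6 to 812.0. The other 4 β subunits, Itgb4, Itgb6, Itgb7 and Itgb8, added little in either group.

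**Figure D2:**
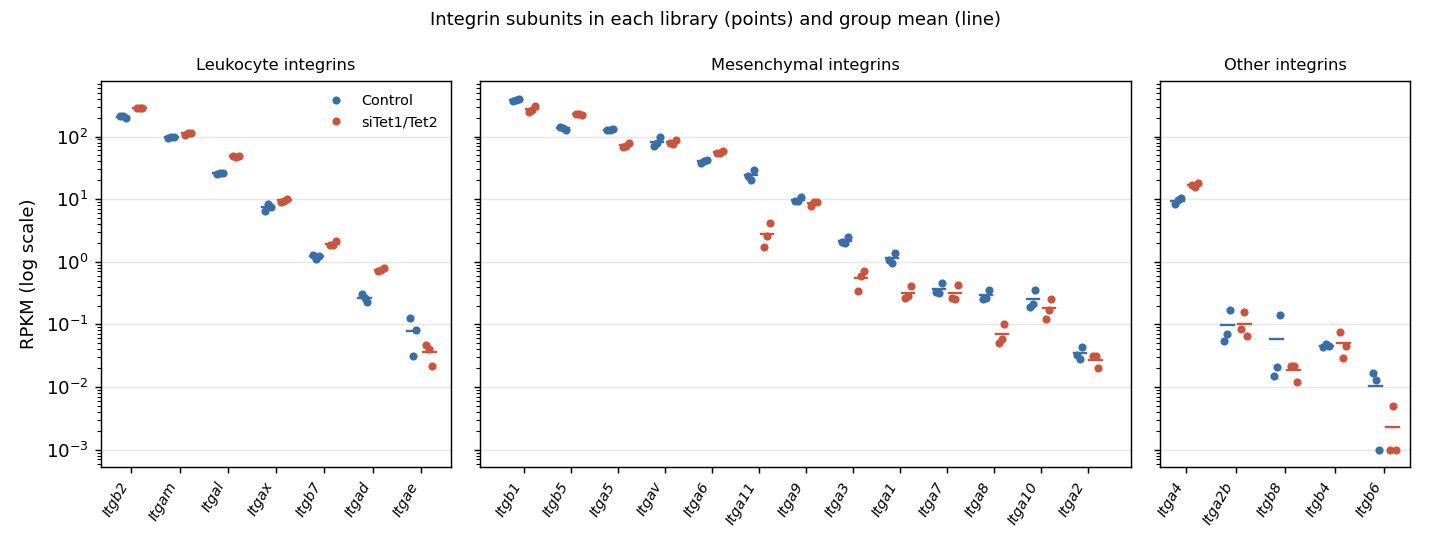
RPKM of the 25 integrin subunits in each library on a log scale, with points for libraries, a line for the group mean and 1 panel for each list. Itgal and Itgad stand clear of the control libraries on the high side and Itga11, Itga3, Itga1 and Itga8 on the low side, whereas Itgav overlaps.

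Among the α partners of β2, the size of the rise differed from gene to gene. Itgal, the αL chain of LFA-1 that binds ICAM-1, was at 25.6, 26.1 and 26.6 RPKM in the controls and at 48.3, 47.5 and 48.9 RPKM in the siRNA libraries. Its replicates were close together and the groups far apart, with a log2 difference of 0.86 (SE 0.05, adjusted p = 1.31e-05 by limma). Itgam, the αM chain of the complement receptor Mac-1 (CD11b), was at 95.2, 99.2 and 97.3 RPKM in the controls and at 107.5, 114.6 and 113.6 RPKM in the siRNA libraries. The log2 difference of Itgam was 0.20 (SE 0.06, adjusted p = 0.0199 by limma), and the adjusted p rose to 0.0893 when siRNA replicate 2 was left out and was also above 0.05 without control replicate 1 or 2 or siRNA replicate 3. Annotated exons of Itgam share 68.7% of their bases with Gm49368, a gene model on the same strand, so its reads may have been divided. Itgax, the αX chain (CD11c), was at 6.52, 8.51 and 7.52 RPKM against 9.13, 9.36 and 10.2 RPKM, a log2 difference of 0.32 (SE 0.10, adjusted p = 0.0351 by limma). That call was lost in 5 of the 6 fits that left out 1 library, all but the fit without control replicate 2, with an adjusted p of up to 0.0955. Itgad, the αD chain, was low, at 0.304, 0.267 and 0.227 RPKM in the controls and 0.711, 0.727 and 0.801 RPKM in the siRNA group, or an estimated 30 to 47 and 113 to 116 reads. Its group means differed 2.81-fold, with a log2 difference of 0.46 (SE 0.06, adjusted p = 0.000628 by limma). Itgam, Itgax and Itgad are neighbouring paralogs on chromosome 7, and how reads matching several of them were counted was not given in the sources used here.

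The balance among the β2 partners was read as ratios within a library. The ratio of Itgal to Itgam within a library was 0.263 to 0.273 in the control group and 0.415 to 0.450 in the siRNA group, while the ratio of Itgam to Itgb2 went from 0.449 to 0.488 down to 0.371 to 0.399. Relative to Ptprc, the common leukocyte antigen, Itgal was at 0.474 to 0.541 in the control libraries and 0.824 to 1.01 in the siRNA libraries, and Itgb2 at 3.56 to 4.47 and 4.80 to 6.10. For Itgam the ratio to Ptprc overlapped between the groups, with 1.74 to 2.01 and 1.92 to 2.43. A permutation test of 3 libraries against 3 cannot go below an exact p = 0.1, so these ratios are given as values without a test. Together, Itgal, Itgam, Itgax and Itgad made up 28.7% to 31.8% of the summed RPKM of the 18 α subunits in the control libraries and 40.2% to 42.7% in the siRNA libraries.

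The β7 integrins of mucosal lymphocytes were scarce. Itgb7, which pairs with α4 or αE, was at 1.29, 1.11 and 1.24 RPKM in the controls and at 1.83, 1.88 and 2.13 RPKM in the siRNA libraries, with a log2 difference of 0.41 (SE 0.08, adjusted p = 0.00408 by limma). Itgae, the αE chain (CD103), had at most 0.125 RPKM and was not tested. Itga4, the α4 chain that binds VCAM-1 and is found on leukocytes and on some mesenchymal cells, was at 8.34, 9.63 and 10.5 RPKM and rose to 17.1, 15.8 and 18.1 RPKM, a log2 difference of 0.78 (SE 0.10, adjusted p = 0.000324 by limma). Its ligand Vcam1 was called higher as well, from 16.9 to 55.9 RPKM on average (adjusted p = 9.98e-07 by limma).

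**Figure D3:**
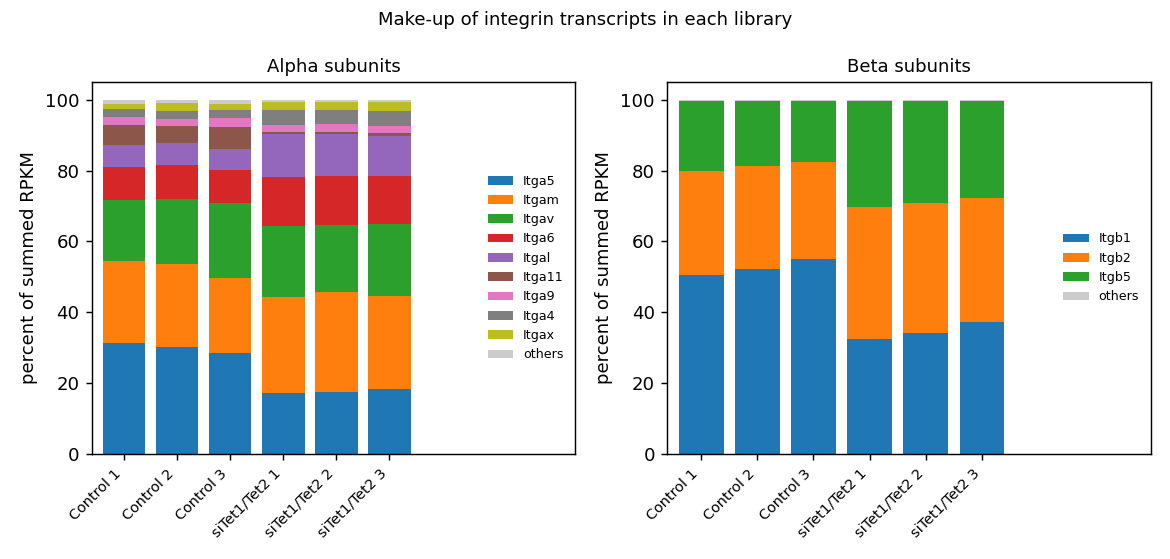
Share of each α subunit in the summed RPKM of the 18 α subunits, and of each β subunit in that of the 7 β subunits, as stacked bars in percent for each library. The Itga5 and Itgb1 segments are smaller and the Itgal, Itgb2 and Itgb5 segments larger in the 3 siRNA libraries.

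Of the 4 collagen-binding α subunits, 3 were tested and 2 were lower. Itga11, the α11 chain of a fibrillar collagen receptor of mesenchymal cells, was at 23.7, 20.0 and 29.6 RPKM in the controls and at 1.72, 2.60 and 4.10 RPKM in the siRNA libraries. Its group means differed 8.71-fold, and on the log2 scale it fell by 2.77 (SE 0.22, adjusted p = 4.40e-05 by limma), the largest change of any member tested. Itga1, the α1 chain that prefers basement membrane collagen, was at 1.05, 0.944 and 1.39 RPKM against 0.264, 0.285 and 0.410 RPKM, a log2 difference of -0.69 (SE 0.09, adjusted p = 0.000613 by limma). Itga10, another collagen receptor chain, best known from cartilage, overlapped between the groups, at 0.190, 0.214 and 0.354 RPKM and 0.123, 0.169 and 0.251 RPKM (adjusted p = 0.394 by limma). Itga2 did not exceed 0.044 RPKM and was not tested. Col1a1, the chain of the collagen that α11 binds, was at 394.2 to 654.7 RPKM in the control libraries and 48.4 to 103.7 RPKM in the siRNA libraries. The ratio of Itga11 to Col1a1 was 0.0452 to 0.0570 and 0.0355 to 0.0406. The group means differed 8.71-fold for Itga11 and 6.78-fold for Col1a1.

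Among the fibronectin and vitronectin receptors, Itga5 and Itga8 were lower and Itgav did not pass the test. Itga5, the α5 chain of the main fibronectin receptor, was the most abundant α subunit in the control libraries, at 128.2, 126.9 and 130.9 RPKM, and was at 67.1, 70.1 and 79.1 RPKM in the siRNA libraries. It fell by 0.83 on the log2 scale (SE 0.07, adjusted p = 5.64e-05 by limma). Itgav, the αv chain that partners β5 and β1, was at 71.0, 77.5 and 97.6 RPKM and at 78.7, 76.4 and 87.1 RPKM, and all siRNA libraries lay within the range of the control libraries (log2 difference -0.01, SE 0.11, adjusted p = 0.943 by limma). The ratio of Itgav to Itga5 was 0.554 to 0.746 in the control libraries and 1.09 to 1.17 in the siRNA libraries. Itga8, the nephronectin receptor chain of smooth muscle and pericytes, was at 0.256, 0.263 and 0.357 RPKM and at 0.050, 0.058 and 0.102 RPKM, an estimated 51 to 67 and 11 to 21 reads. It was called lower with a log2 difference of -0.27 (SE 0.06, adjusted p = 0.00802 by limma), a value held down by the pseudocount, since the group means differed 4.17-fold.

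Of the 3 laminin-binding α subunits, 1 was lower and 1 was higher. Itga3, the α3 chain, was at 2.04, 1.97 and 2.46 RPKM and at 0.337, 0.590 and 0.708 RPKM, a log2 difference of -1.04 (SE 0.11, adjusted p = 0.000166 by limma). Itga6, the α6 chain, rose from 37.4, 40.8 and 42.4 RPKM to 54.7, 55.4 and 58.4 RPKM, a log2 difference of 0.47 (SE 0.07, adjusted p = 0.000647 by limma). Itga7, the laminin receptor chain of muscle, was at 0.320 to 0.454 RPKM and 0.256 to 0.420 RPKM and did not pass the test (adjusted p = 0.559 by limma). Itga9, which binds tenascin and VCAM-1, was at 9.41, 9.29 and 10.8 RPKM and at 7.76, 9.06 and 8.90 RPKM. The siRNA libraries were all lower, but the difference did not pass the test (log2 difference -0.18, SE 0.09, adjusted p = 0.151 by limma). The platelet chain Itga2b stood at 0.054 to 0.170 RPKM in the control group and 0.066 to 0.158 RPKM in the siRNA group (adjusted p = 0.949 by limma). The epithelial β chains Itgb4 and Itgb6, and Itgb8, which pairs with αv, were not tested. With Itgae, Itga2 and Fermt1 they form the 6 members under the minimum, whose highest value in any library was 0.139 RPKM. When no minimum was used, these 6 had adjusted p-values between 0.251 and 0.837.

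**Figure D4:**
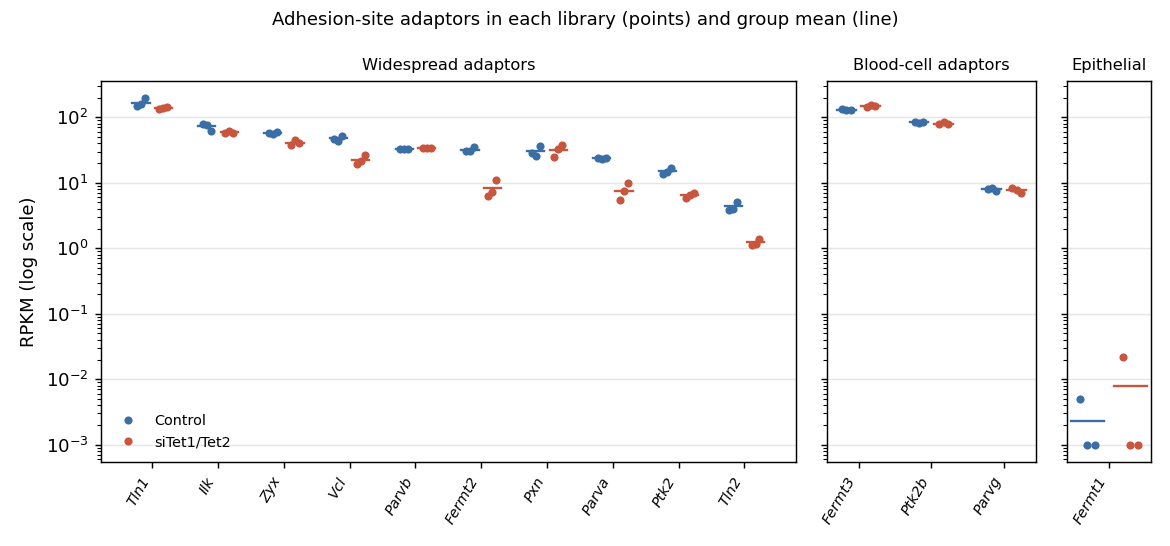
RPKM of the 14 adhesion-site adaptors in each library on a log scale, with points for libraries, a line for the group mean and panels for widespread, blood-cell and epithelial adaptors. Fermt2, Parva, Ptk2, Tln2 and Vcl lie clearly lower in the siRNA libraries, and the blood-cell adaptors stay close to the control values.

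Kindlins, which bind the β tail beside talin, are encoded by 3 genes with separate tissues. Fermt2 (kindlin-2), the form of mesenchymal cells, was at 30.9, 30.5 and 34.7 RPKM in the controls and at 6.24, 7.28 and 11.2 RPKM in the siRNA libraries. It fell by 1.87 on the log2 scale (SE 0.17, adjusted p = 8.01e-05 by limma). Fermt3 (kindlin-3), the form of blood cells, was at 132.5, 129.9 and 130.9 RPKM and at 143.7, 151.5 and 149.1 RPKM, a log2 difference of 0.17 (SE 0.05, adjusted p = 0.0316 by limma). The call of Fermt3 was lost in 5 of the 6 fits without 1 library, all but the fit without control replicate 3, with an adjusted p of up to 0.127. Fermt1 (kindlin-1), the epithelial form, was at the lowest listed value of 0.001 RPKM in 4 libraries and reached 0.022 RPKM. The ratio of Fermt3 to Fermt2 was 3.78 to 4.29 in the control libraries and 13.3 to 23.0 in the siRNA libraries.

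Of the parvins, which link integrin-linked kinase to actin, Parva was lower and Parvb and Parvg did not pass the test. Parva was at 23.9, 23.1 and 24.0 RPKM in the controls and 5.40, 7.43 and 9.98 RPKM in the siRNA libraries, a log2 difference of -1.55 (SE 0.17, adjusted p = 0.000182 by limma). Parvb was at 32.5, 33.3 and 32.7 RPKM and 33.6, 34.3 and 33.6 RPKM, without overlap but with little difference (log2 difference 0.04, SE 0.05, adjusted p = 0.562 by limma). After median ratio scaling or quantile normalization Parvb was called higher (log2 difference 0.16 in both, adjusted p = 0.0495 and 0.0414 by limma). Parvg, the parvin of blood cells, was at 7.60 to 8.46 RPKM and 6.87 to 8.42 RPKM (adjusted p = 0.663 by limma). The share of Parva in the summed RPKM of the parvins was 35.6% to 37.3% in the control libraries and 11.4% to 19.8% in the siRNA libraries.

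Focal adhesion kinase was lower, and its blood-cell relative did not pass the test. Ptk2 (FAK) was at 13.8, 14.6 and 16.7 RPKM in the controls and 5.81, 6.57 and 7.09 RPKM in the siRNA libraries, a log2 difference of -1.10 (SE 0.10, adjusted p = 7.40e-05 by limma). Ptk2b (PYK2), which is prominent in macrophages and osteoclasts, was at 83.9, 81.4 and 85.2 RPKM and 78.5, 83.4 and 78.1 RPKM, and the groups overlapped (adjusted p = 0.402 by limma). Of the talins, Tln2 was at 3.90, 4.01 and 5.15 RPKM and 1.14, 1.17 and 1.39 RPKM, a log2 difference of -1.26 (SE 0.11, adjusted p = 6.38e-05 by limma). Tln1, the talin of most cells and by far the more abundant, was at 150.4, 157.0 and 194.6 RPKM and 132.2, 139.2 and 145.2 RPKM. The siRNA libraries of Tln1 were all lower, yet the difference did not pass the test (log2 difference -0.26, SE 0.10, adjusted p = 0.0650 by limma). It passed with the replicate number as a block (adjusted p = 0.0144) and without control replicate 1 (adjusted p = 0.0332).

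**Figure D5:**
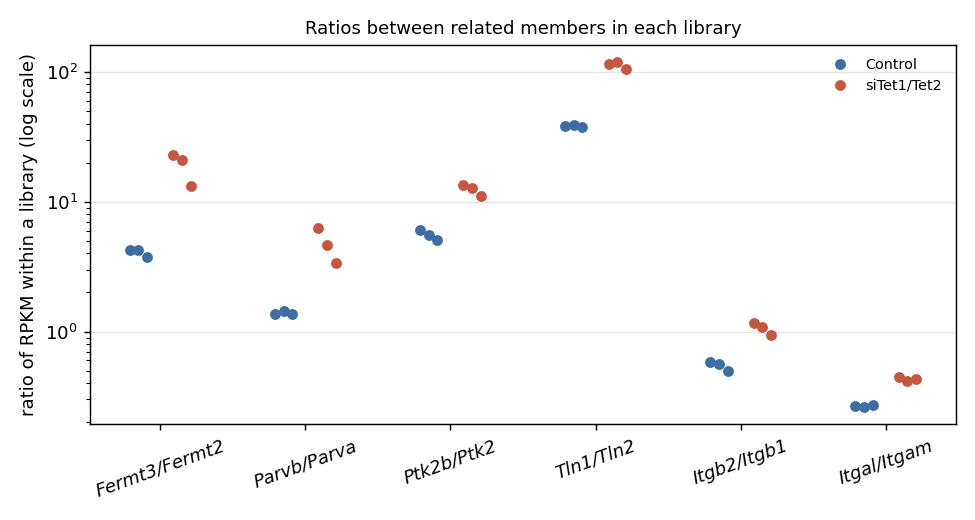
Ratio of RPKM between related members within each library on a log scale, with 3 points for each group. In all 6 pairs shown the siRNA libraries lie above the control libraries. In most of them the second gene was itself called lower, so the direction largely follows from that call. The ratio of Itgam to Itgb2, which fell, is not shown. The ratio of Fermt3 to Fermt2 goes from 3.78 to 4.29 in the controls up to 13.3 to 23.0.

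Of the remaining adaptors of the actin link, Vcl, Zyx and Ilk were lower and Pxn did not pass the test. Vcl (vinculin), which binds talin and actin, was at 47.3, 44.1 and 51.6 RPKM in the controls and 19.1, 21.7 and 26.6 RPKM in the siRNA libraries, a log2 difference of -1.06 (SE 0.12, adjusted p = 0.000183 by limma). Zyx (zyxin), which gathers at adhesions under tension, was at 58.2, 55.0 and 59.7 RPKM and 38.4, 44.3 and 40.6 RPKM, a log2 difference of -0.48 (SE 0.07, adjusted p = 0.000805 by limma). Ilk, the scaffold of the parvin complex, was at 79.3, 76.9 and 62.8 RPKM and 56.8, 61.2 and 58.3 RPKM, a log2 difference of -0.30 (SE 0.09, adjusted p = 0.0272 by limma). The call of Ilk was lost in every fit without 1 library but that without control replicate 3 (adjusted p of up to 0.0996), and 76.7% of its annotated exonic bases overlap Taf10 on the opposite strand. Pxn (paxillin), the docking protein of focal adhesion kinase, overlapped between the groups, at 28.1, 26.0 and 36.3 RPKM and 24.9, 32.9 and 38.1 RPKM (adjusted p = 0.738 by limma). Annotated exons of Vcl share 25.5% of their bases with Ap3m1 on the opposite strand, and whether the counting used strand was not given in the sources used here.

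The 13 members called lower had a similar order among the siRNA libraries. In all 13 of them siRNA replicate 1 held the lowest of the 3 siRNA values, and in 11 siRNA replicate 3 held the highest. How many of all genes called lower hold this order was not counted, so it is not shown to be particular to the members. The summed stromal markers were likewise lowest in siRNA replicate 1, at 138.5 RPKM, and highest in siRNA replicate 3, at 280.1 RPKM, with 191.8 RPKM in siRNA replicate 2. The summed macrophage markers ran the other way, at 17541, 16257 and 14410 RPKM in siRNA replicates 1, 2 and 3. That sum was mostly Lyz2, at 12728, 11393 and 9842 RPKM. Cd68 and Tyrobp fell in the same order, but the other macrophage markers did not, among them Csf1r at 578.2, 614.9 and 618.7 RPKM. Without siRNA replicate 3 the log2 difference of Fermt2 was -2.09 and that of Itga11 -3.01, and none of the 13 but Ilk lost its call when any 1 library was left out. The 8 stromal markers called lower included Pdgfra, which fell from 9.92 to 0.944 RPKM on average, and Col3a1. Over these 8 the group means differed from 1.52-fold (Eng) to 10.51-fold (Pdgfra), with 3.81-fold for Dcn and 8.85-fold for Col3a1. The stromal markers Nt5e and Mcam were tested and not called. Among the mesenchymal integrins and widespread adaptors, Itga11 with 8.71-fold was followed by Itga8 with 4.17-fold.

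Other genes of adhesion sites were compared as a hand-compiled list of 25 symbols, of which 24 were found and tested. Of these, 19 were lower and 1 was higher, against 29.8% lower and 14.7% higher over all genes tested. The median log2 difference of the list was -0.56, beside -0.09 for all genes tested. The largest decreases were those of Tgfb1i1 (Hic-5, a paxillin relative), which went from 34.6 to 7.46 RPKM on average, Bcar1 (p130Cas, a substrate of FAK and Src), from 13.1 to 3.07 RPKM, and Enah (Mena, an actin regulator), from 20.9 to 5.65 RPKM. The gene called higher was Git2, a paxillin-binding signalling adaptor, from 14.6 to 17.7 RPKM (adjusted p = 0.0133 by limma). The paxillin relative of leukocytes, Lpxn, was named after its values were seen, and was called lower too, from 93.5 to 119.2 RPKM in the control libraries to 64.9 to 74.4 RPKM in the siRNA libraries.

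Genes of leukocyte integrin signalling, also compiled by hand, were called in both directions. Of 19 genes listed, 18 were tested, of which 5 were higher and 6 were lower, against 14.7% higher and 29.8% lower over all genes tested. Their median log2 difference was -0.08, beside -0.09 for all genes tested. Besides Vcam1, the increases were led by Cyth1 (cytohesin-1, which binds the β2 tail), from 41.6 to 73.9 RPKM on average, and Syk, a kinase that acts below β2 integrins, from 46.8 to 78.8 RPKM. The decreases included Icam2, a ligand of LFA-1, from 5.57 to 3.60 RPKM, and Apbb1ip (RIAM, through which Rap1 brings talin to integrins), from 99.8 to 72.2 RPKM. Each of these had an adjusted p of at most 0.0104 from limma.

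Promoter sequence was examined because Tet enzymes oxidise methylated cytosine in CpG dinucleotides. No methylation was measured in these libraries. RefSeq promoters on GRCm38.p6 were matched for 27 of the 39 members, and the 250 bases upstream of the first listed start were read from 5′ to 3′ on the gene's strand. Sequences are given for the kindlins Fermt2 (chr14:45530066-45530315, minus strand), called lower, and Fermt3 (chr19:7019470-7019719, minus strand), called higher. The rise of Fermt3 was small (log2 difference 0.17), and its call was lost in 5 of the 6 fits without 1 library. The others are Vcl (chr14:20929148-20929397, plus strand), the most reduced integrin Itga11 (chr9:62677605-62677854, plus strand) and Itgb5, a β chain called higher (chr16:33829415-33829664, plus strand). Capitals mark CpG dinucleotides.
Fermt2: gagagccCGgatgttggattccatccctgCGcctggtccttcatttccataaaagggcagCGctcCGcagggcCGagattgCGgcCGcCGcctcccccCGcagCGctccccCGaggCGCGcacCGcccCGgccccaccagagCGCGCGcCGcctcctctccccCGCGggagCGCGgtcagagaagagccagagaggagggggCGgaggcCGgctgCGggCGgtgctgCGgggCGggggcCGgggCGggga
Fermt3: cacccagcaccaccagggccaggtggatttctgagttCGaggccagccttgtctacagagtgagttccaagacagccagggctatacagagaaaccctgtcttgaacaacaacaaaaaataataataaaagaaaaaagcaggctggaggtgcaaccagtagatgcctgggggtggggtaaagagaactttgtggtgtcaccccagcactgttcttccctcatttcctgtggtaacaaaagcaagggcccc
Vcl: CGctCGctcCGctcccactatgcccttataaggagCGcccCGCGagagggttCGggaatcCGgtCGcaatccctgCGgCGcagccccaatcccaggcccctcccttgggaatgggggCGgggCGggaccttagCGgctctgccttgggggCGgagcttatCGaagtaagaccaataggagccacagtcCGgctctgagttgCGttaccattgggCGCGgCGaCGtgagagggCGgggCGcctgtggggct
Itga11: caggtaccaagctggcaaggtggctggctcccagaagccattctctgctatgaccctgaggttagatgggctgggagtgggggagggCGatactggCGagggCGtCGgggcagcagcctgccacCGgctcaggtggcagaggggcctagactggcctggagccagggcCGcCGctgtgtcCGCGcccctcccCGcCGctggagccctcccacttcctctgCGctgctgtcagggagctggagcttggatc
Itgb5: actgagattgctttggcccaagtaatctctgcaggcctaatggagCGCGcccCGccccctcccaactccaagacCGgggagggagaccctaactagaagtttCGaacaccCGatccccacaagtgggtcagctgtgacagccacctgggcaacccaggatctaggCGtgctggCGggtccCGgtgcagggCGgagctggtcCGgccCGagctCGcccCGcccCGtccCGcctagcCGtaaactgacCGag

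The upstream sequence of Fermt2 held 31 CpG dinucleotides and that of Fermt3 only 1, against a median of 6 over 27025 promoters of the same length. Vcl had 24, Itgb5 18 and Itga11 12. The 10 matched members called lower had between 10 and 31 with a median of 19.5. The 6 matched members called higher had between 1 and 18 with a median of 5.5. By list, the medians were 18.5 in the 6 matched widespread adaptors and 12 in the 11 matched mesenchymal integrins. The medians were 5 in the 3 matched leukocyte integrins and 2.5 in the 2 matched blood-cell adaptors, too few to describe those lists. CpG numbers over all genes called lower or higher were not counted, so a link between CpG number and call was not tested. Among the 6 matched members called higher, Itgb5 stood apart, since Itgam, Itgax, Itgb7, Itga4 and Fermt3 had 6 or fewer. Itgal, Itgb2, Itgad and Itga6, also called higher, had no matched promoter. The 7 matched members that did not pass the test had between 2 and 18. A CArG box, the binding motif of serum response factor, was found on either strand in 2 of the 27 sequences, those of Fermt2 and Vcl, and in 1.40% of all promoters. It lay 195 to 204 bases upstream of the start in Fermt2 and 218 to 227 bases upstream in Vcl. The letters TGTGGT, found on either strand in 14.2% of all promoters, were present in Fermt3, Itga4 and Ilk, and GAGGAA, in 23.1% of all promoters, was present in 8 members, among them Itgam, Itga5, Itga11 and Itgb1. GGAATG, in 12.6% of all promoters, was present in Itga10, Itgb1 and Vcl. These matches describe the letters of the sequence and show no binding.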

How the data were processed

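RNA-seq of total RNA from BMMSCs was examined in 6 libraries, 3 of each group, grouped by the sample titles. Per the paper's methods, the authors trimmed adaptors, mapped reads to GRCm38 and estimated abundance with DNASTAR Lasergene, and they deposited linear RPKM per gene and library, named FPKM in the methods. The lowest listed value is 0.001. A deposited column of the authors' own p-values was not used. Of several entries for 1 symbol (37 symbols), that with the largest mean entered. Genes averaging 0.1 RPKM or more were compared as log2(RPKM + 1) with limma 3.58.1 in R 4.3.3 (lmFit, eBayes with trend, two-sided, Benjamini-Hochberg over 13266 genes). On simulated libraries, 197 of 200 genes changed by 1.5 on the log2 scale were recovered, and 7 of 13066 unchanged genes were called. The changed genes were drawn from the more abundant ones, and most called members changed by less, so recovery of low genes or smaller changes was not tested.

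The members and lists were chosen with earlier results of these data known. Every member is named, with the targeted Tet genes, a few defining markers, and the 3 largest called increases and decreases of each of the other adhesion lists. Some genes that these rules take are not reported here. The table gives no read totals. The depth at which low values of genes with 1 transcript came nearest to whole reads was 32400000 to 38600000 reads, with 52.4% to 57.2% of values within 0.1 of a whole read, so read numbers are rough estimates and no count test was run. Replicates correlated with r of 0.992 to 0.997 across genes, and libraries of different groups with r of 0.949 to 0.969. Deviations from the group means of libraries with the same replicate number correlated at 0.149, 0.117 and 0.462 across genes. Each is over 0.1, and a further fit used them as pairs, although the labels do not say what the numbers mark. Control replicate 1 with siRNA replicate 2 gave 0.332 and control replicate 2 with siRNA replicate 1 gave 0.205. Both exceed the value of the same-number pair of that control, so pairing by number is doubtful. Alternatives covered the pseudocount, the minimum, the scaling, the variance model, the replicate block, rows sharing a symbol, the call rule, and each library left out. Exon overlaps are from GENCODE M21 (GRCm38). Python 3.11.15 with pandas 2.3.3 and matplotlib 3.10.9 was used.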

Additional observations from a re-analysis of the deposited data

How the results depend on the processing

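Of the 23 called members, 19 kept their direction and call under all 16 alternative fits that gave them a value. The exceptions were Itgam, Itgax, Fermt3 and Ilk, and no call changed direction. The number of members lower was 13, and 7 when a fold change over 2 on the log2(RPKM + 1) scale was also required. It was 9 when a ratio of the group means over 2 was required instead. The number higher was 10, and 0 with the first of these rules and 1 with the second. By these rules the leukocyte integrins higher numbered 0 and 1 (6 without a fold limit in the fit used above). The mesenchymal integrins higher numbered 0 and 0, the adaptors higher 0 and 0, and the mesenchymal integrins lower 2 and 4. Without a fold limit, the leukocyte integrins higher numbered 4 when each library was rescaled to the same sum and 5 with no minimum. When 1 library was left out they numbered 4 or 5, and all members higher numbered 7 to 9. The 1 adaptor higher, Fermt3, became 2 with Parvb after median ratio scaling or quantile normalization. It became 0 when each library was rescaled to the same sum and with eBayes without trend, and 0 to 1 without 1 library. The difference between the median log2 differences of the leukocyte and mesenchymal integrins, 0.66, became 0.96 with a pseudocount of 0.1 and 1.05 with 0.01, since a smaller pseudocount raises the fold changes of low genes by construction. The median of all genes tested moved from -0.09 to 0.05 after quantile normalization, and changes are relative to the scaling. With the replicate block 14 members were lower and 10 higher, Tln1 being added, and no other call changed. Itgad, Itga8, Itga10, Itga7 and Itga2b rest on fewer than 120 estimated reads per library, which limits what can be seen for them.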

Other observations

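The marker lists not described above were read in the same fit. Of 5 platelet genes, 3 were tested, and 2 were higher and 1 was lower. Pf4, which macrophages also express, rose from 179.8 to 284.0 RPKM in the control libraries to 540.2 to 646.3 RPKM in the siRNA libraries. Gp9, which macrophages lack, did not exceed 0.044 RPKM. Of 6 dendritic cell markers 1 was tested and did not pass, Zbtb46 (adjusted p = 0.0508 by limma, and 0.0226 without the minimum). Of 5 endothelial markers, 4 were tested, and Kdr was called lower and Pecam1 and Vwf higher. Cd4, listed with the T cell genes, rose from 2.39 to 2.68 RPKM to 7.56 to 8.69 RPKM, while the 3 Cd3 chains stayed at or below 0.027 RPKM. Of 5 B cell genes, 1 was tested, Cd79b, and it was called higher, reaching at most 1.29 RPKM. These genes were named after their values were seen.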
